A study of Mus musculus with 13 samples.

Results

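Glomeruli of DH-LMP2A mice were compared with glomeruli of wild-type (WT) mice by RNA sequencing, in 9 of the 13 libraries of a study on the toxicity of monoclonal immunoglobulin light chains in the kidney. The members were the count columns named DH (4 libraries) and WT (5 libraries). The other 4 libraries came from the genotype labelled kFRA (LCDD), the light chain deposition disease model, and are given beside the results. All mice were 6 months old, an age the series description places at the start of glomerular scarring, and of mixed C57/BL6x129/SVxBALB/c background. Glomeruli were isolated with magnetic beads, and the labels give neither a drug treatment nor the sex of the animals. Each DH-LMP2A library and WT replicates 1 and 2 pooled 3 mice, while WT replicates 3 to 5 were 1 mouse each. The LCDD libraries also pooled 3 mice each. All 13 libraries entered the main fit, so its p-values measure a spread that mixes pools, the LCDD pools among them, with single mice.

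The labels name the genotype without describing the allele. As background, LMP2A is a latent membrane protein of Epstein-Barr virus that signals like an engaged B cell receptor, and in DH-LMP2A mice its gene sits in the D region of the immunoglobulin heavy chain locus, so that B cells can mature without an antibody receptor at their surface. The heavy chain with a kappa or lambda light chain forms the antibody, and secreted IgA and IgM carry the J chain. The glomerulus is the filter of the kidney, a capillary tuft of podocytes, fenestrated endothelium and mesangial cells on a shared basement membrane. It is not itself a site of antibody production, and bead preparations carry varying amounts of tubule, blood and interstitial cells. In RNA of such a mixture, fewer cells of a type and less RNA per cell cannot be told apart.

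Podocyte markers identified the tissue in each library. Levels are given in CPM, that is read counts scaled to the library total with TMM factors. The mean of the 24 podocyte markers was 8.60 to 9.56 log2 CPM in DH-LMP2A and 8.50 to 9.54 in WT. Proximal tubule markers varied far more, from 4.88 to 7.42 log2 CPM in DH-LMP2A and 2.32 to 7.42 in WT over 20 genes. Total counts were 17274426 to 26143996 in DH-LMP2A and 16687509 to 30587890.0 in WT, so that 3 counts, taken as the floor of detection, correspond to 0.0971 to 0.185 CPM, for counting error only. WT replicate 2 stood apart from the other WT libraries in 2 lists: the 30 interferon response genes averaged 6.16 log2 CPM there against 3.93 to 4.23, and it alone among WT held more than traces of Y-linked transcripts. Some results below are also given without WT replicate 2, while others, among them most single genes, are given with it only.

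Between DH-LMP2A and WT, 105 of 16738 tested genes were called at an adjusted p under 0.05 (edgeR quasi-likelihood test, Benjamini-Hochberg), 46 higher and 59 lower in DH-LMP2A. This is 0.627% of the genes tested, 0.275% higher and 0.352% lower. The titles carry a 6-digit code, of unstated meaning, that libraries of different genotypes share. Fitting this code as a block gave 562 calls, or 3.36%, of which 297 were higher (1.77%) and 265 lower (1.58%), and 104 of the calls were common to the 2 fits. At an unadjusted p under 0.05 there were 2085 genes, and DESeq2 called 458. Leaving out WT replicate 1 raised the number without the block to 407. Leaving out DH-LMP2A replicate 2, 3 or 4 lowered it to 29, 35 or 50, and leaving out WT replicate 3, 4 or 5 lowered it to 33, 43 or 41. The median log2 fold change over all genes tested was 0.00 (0.02 with the block), with 50.1% above 0. Every DH-LMP2A library lay above every WT library for 2.64% of genes and below for 2.33%. Below, values follow the order of replicates (DH-LMP2A 1 to 4, WT 1 to 5), errors of log2 fold changes are SE, and the value after the word block is that of the blocked fit. Against LCDD, 334 genes were called (2%), 116 higher in DH-LMP2A (0.693%) and 218 lower (1.3%). Of the 105 called genes, 28 were on one of the gene lists used here. The shares to set beside every list count below are 0.275% higher and 0.352% lower, and 1.77% and 1.58% with the block. Among the genes described below, Igha, Igkc and Jchain and a set that includes Arl2bp, Nxpe4 and H2-Q6 were lower, while kidney genes with male-biased expression and some genes of the circadian clock were higher.

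**Figure D1:**
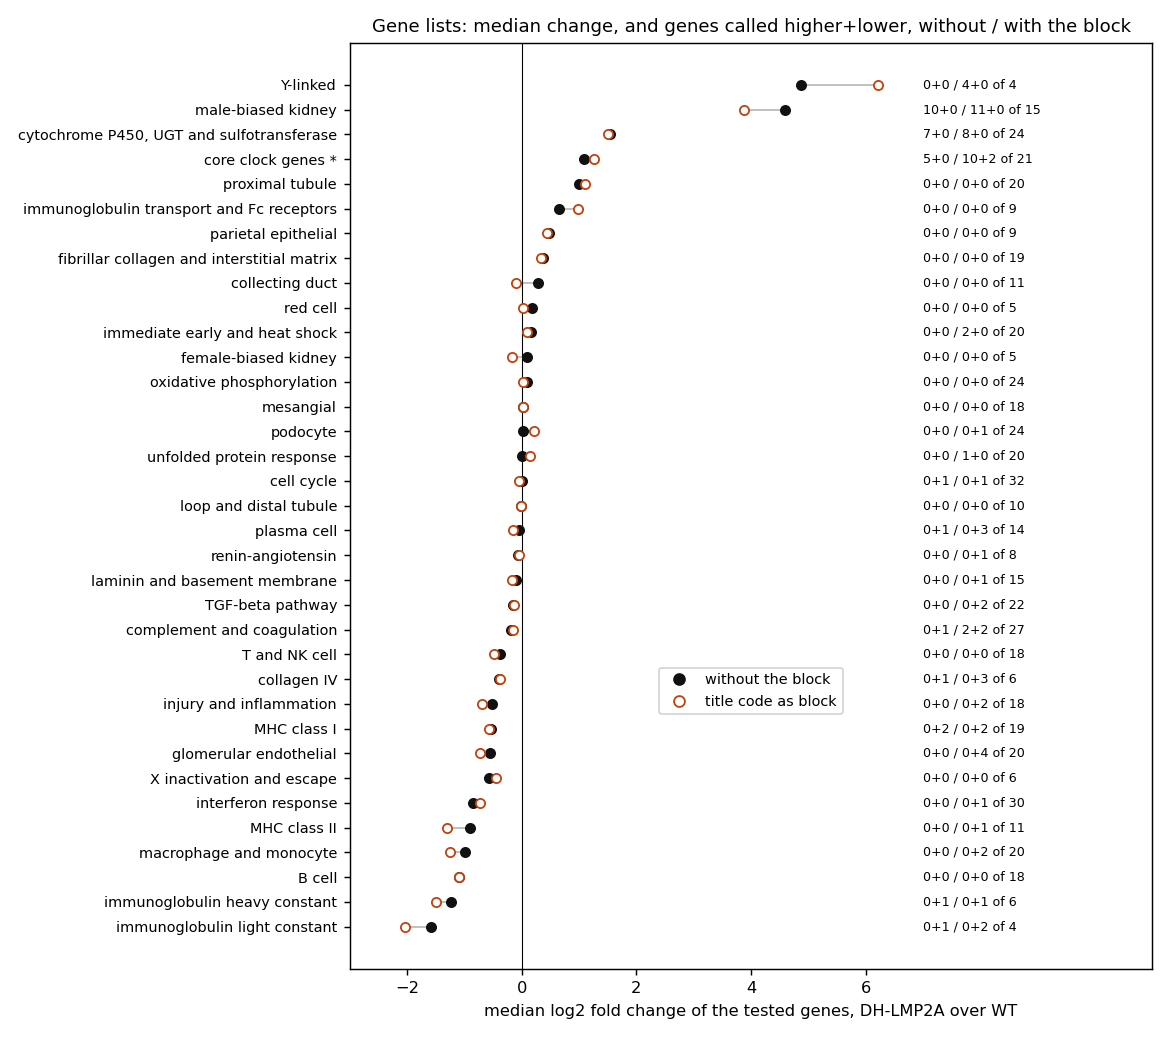
Median log2 fold change of DH-LMP2A over WT for the tested genes of the gene lists, without the block (filled) and with the title code as block (open), with the number called higher+lower without / with the block at the right. The list taken from earlier results of these data is not shown. Of its 17 tested genes, 5 were called lower in each fit and 3 higher with the block (median -0.58 without it). Y-linked and male-biased kidney genes have the highest medians (4.87 and 4.59 without the block) and immunoglobulin constant genes the lowest; the asterisk marks the clock list, which was chosen after its values were seen.

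Among immunoglobulin transcripts, the IgA heavy chain Igha and the kappa constant gene Igkc were lower in DH-LMP2A glomeruli in both fits, as was the J chain. Igha was at 0.15, 0.148, 0.343 and 0.134 CPM in DH-LMP2A and 8.74, 11.6, 35.4, 56.1 and 42.3 CPM in WT. DH-LMP2A libraries thus held 3 to 6 reads each, at or just above the floor, and no library overlapped with WT (log2 fold change -7.34 ± 0.71, adjusted p = 4.7e-04; block -6.89 ± 0.59, adjusted p = 4.8e-04). Igkc, the kappa light chain constant region, was at 7.56, 5.11, 5.14 and 2.24 CPM in DH-LMP2A and 24, 75.8, 26.7, 39.2 and 31.4 CPM in WT. It was lower in DH-LMP2A without overlap, but was detected in every library (log2 fold change -2.97 ± 0.41, adjusted p = 0.0061; block -3.23 ± 0.37, adjusted p = 0.0029). Jchain, which joins IgA and IgM into polymers, was at 0.935, 0.741, 0.856 and 0.716 CPM in DH-LMP2A and 2.14, 10.7, 7.89, 13.1 and 9.69 CPM in WT. All 4 DH-LMP2A libraries lay under 1 CPM, and WT replicate 1 was the lowest WT library (log2 fold change -3.41 ± 0.62, adjusted p = 0.029; block -3.42 ± 0.70, adjusted p = 0.034). The calls of Igha and Igkc held when each of the 9 libraries was left out, while for Jchain the call was lost without DH-LMP2A replicate 2, DH-LMP2A replicate 3, DH-LMP2A replicate 4, WT replicate 3, WT replicate 4 and WT replicate 5 in turn (largest adjusted p = 0.13).

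Other isotypes differed less. Ighd, the IgD heavy chain of naive B cells, was at 0.599, 1, 1.08 and 0.851 CPM in DH-LMP2A and 13.1, 5.07, 2.44, 1.48 and 2.27 CPM in WT, without overlap but not past the threshold (log2 fold change -2.47 ± 0.61, adjusted p = 0.1; block -2.33 ± 0.65, adjusted p = 0.073). Ighm, the IgM heavy chain, was at 12.7, 4.63, 7.94 and 3.45 CPM in DH-LMP2A and 46.3, 30.3, 5.53, 4.88 and 6.41 CPM in WT. Only WT replicates 1 and 2, the pools, were above the DH-LMP2A range, and the single mice fell within it (log2 fold change -1.38 ± 0.70, adjusted p = 0.45; block -1.35 ± 0.37, adjusted p = 0.073). Of the 6 tested heavy chain constant genes, 1 was called lower in each fit, and 4 had a negative log2 fold change (median -1.23). The IgG genes Ighg1 and Ighg3 had positive values without being called (1.92, adjusted p = 0.61, and 2.75, adjusted p = 0.23). DH-LMP2A replicate 2 held 4 CPM of Ighg1, above the 0 to 0.811 CPM of WT. Among 4 tested light chain constant genes, Igkc was called without the block, and Igkc with Iglc2, a lambda constant gene, with it (-2.36 ± 0.54, adjusted p = 0.047).

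Reads were also summed over gene segments. All heavy chain constant genes together were at 10.7 ± 4.50 CPM in DH-LMP2A and 55.9 ± 10.5 CPM in WT (SD, n = 4 and 5), 5.25 times higher in WT. Heavy chain variable segments were at 0.785 ± 0.639 and 8.81 ± 2.43 CPM, 11.2 times higher in WT and resting on 79 reads in DH-LMP2A and 1064 in WT. Kappa variable segments were at 2.94 ± 1.24 and 20.2 ± 4.78 CPM. Lambda variable segments were at 0.729 ± 0.750 and 2.01 ± 2.51 CPM and overlapped: WT replicate 2 held 6.42 CPM, while the other WT libraries held 0.36 to 1.39 CPM, within the 0.179 to 1.82 CPM of DH-LMP2A. Variable segments can be similar in sequence and the counting could split their reads. Single segments such as Igkv1-110 (log2 fold change -4.19 ± 0.81, adjusted p = 0.04, block -3.50 ± 0.92, adjusted p = 0.064) are therefore uncertain. Further single segments were called lower in both fits, at WT means near or under 1 CPM. Their calls were lost without DH-LMP2A replicate 2, 3 or 4.

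Markers of the B cells and plasma cells that make these transcripts were low in every library and mostly did not pass the test. Of 18 tested B cell genes, 0 were called in either fit and 16 were negative (median -1.09). Their mean was -0.34 to 0.77 log2 CPM in DH-LMP2A and -0.24 to 2.47 in WT. Cd79a, a signalling chain of the B cell receptor, was at 1.21 to 3.26 CPM in DH-LMP2A against 1.21 to 9.67 CPM in WT, so transcripts of this B cell gene were present in both genotypes. Of 14 tested plasma cell genes, Jchain alone was called without the block, and Jchain, Cd38 and Tnfrsf13b with it. Mzb1, a plasma cell chaperone cofactor, was at 0.269 to 1.03 CPM in DH-LMP2A against 0.447 to 1.79 CPM in WT. The part of B cell number in the immunoglobulin result was not tested. Around the heavy chain constant genes, 87 other tested genes lie within 5 Mb on chromosome 12. Of these 1 was called without the block, Tnfaip2, and 4 with it, Dlk1, Hsp90aa1, Tnfaip2 and Cdca7l, with a median of 0.08. In LCDD libraries the values were close to those of DH-LMP2A: Igha was at 0.0394 to 0.263 CPM (log2 difference 0.45 ± 0.88, adjusted p = 0.88) and Igkc at 4.69 to 9.06 CPM (log2 difference -0.50 ± 0.40, adjusted p = 0.66).

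**Figure D2:**
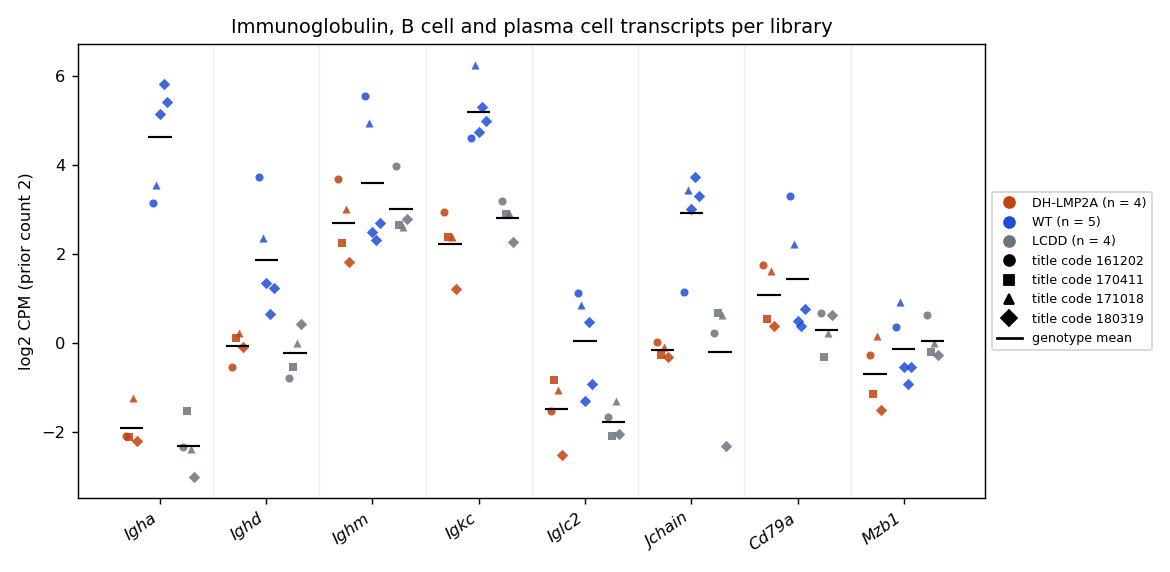
log2 CPM (prior count 2) of immunoglobulin, B cell and plasma cell transcripts in each library, coloured by genotype and shaped by title code, with genotype means as lines. Igha and Igkc do not overlap between DH-LMP2A and WT, whereas Ighm, Cd79a and Mzb1 do.

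A second set of genes was lower in every DH-LMP2A library than in any WT library, as were 2.33% of all genes. The set was picked among called genes, so the separation follows in part from that choice. Arl2bp, a binding partner of the small GTPase ARL2, was at 12.5, 11.9, 13.3 and 9.67 CPM in DH-LMP2A and 70.4, 70.1, 74.1, 67.5 and 70.4 CPM in WT. The libraries of each genotype lay close together and the genotypes far apart (log2 fold change -2.57 ± 0.12, adjusted p = 2.3e-07; block -2.59 ± 0.13, adjusted p = 1.9e-05). Mylk3, the cardiac myosin light chain kinase, was at 1.01, 1.78, 1.03 and 1.03 CPM in DH-LMP2A and 5.5, 12.8, 8.29, 10.5 and 7.91 CPM in WT, again without overlap (log2 fold change -2.88 ± 0.28, adjusted p = 4.7e-04; block -2.93 ± 0.25, adjusted p = 4.8e-04). Mcm6, a subunit of the replicative helicase, was at 5.95, 4.7, 3.94 and 3.36 CPM in DH-LMP2A and 25, 21.9, 14.9, 12.6 and 17.5 CPM in WT (log2 fold change -2.03 ± 0.27, adjusted p = 0.0044; block -2.28 ± 0.17, adjusted p = 4.1e-04). The other members of the cell cycle list did not follow it: of 32 tested genes, Mcm6 was the 1 called, and the median was 0.00. For these 3 genes LCDD libraries were nearer to WT. Arl2bp was at 36.4 to 49.1 CPM there (log2 difference -1.90 ± 0.12, adjusted p = 3.5e-06), Mylk3 at 4.72 to 6.43 CPM (log2 difference -2.23 ± 0.28, adjusted p = 0.0017) and Mcm6 at 17.9 to 34.4 CPM (log2 difference -2.44 ± 0.28, adjusted p = 7.5e-04).

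Genes of the H2-Q cluster of nonclassical MHC class I molecules were lower in DH-LMP2A. H2-Q6 was at 55.7, 10.9, 29.2 and 26.1 CPM in DH-LMP2A and 1584, 3379.6, 1711, 1934 and 1644 CPM in WT (log2 fold change -6.07 ± 0.66, adjusted p = 0.0012; block -5.94 ± 0.64, adjusted p = 0.0022). H2-Q7 was at 26.7, 16.7, 35.5 and 28.5 CPM in DH-LMP2A and 521, 1536, 632, 747 and 524 CPM in WT (log2 fold change -4.88 ± 0.58, adjusted p = 0.002; block -4.64 ± 0.36, adjusted p = 4.1e-04). Both stand without overlap, and in LCDD they were at 543 to 3941 CPM and 285 to 1838 CPM, above every DH-LMP2A library. H2-Q5, in the same cluster, was at 8.59 to 32.3 CPM in DH-LMP2A against 74.5 to 279 CPM in WT (log2 fold change -2.88 ± 0.54, adjusted p = 0.034; block -2.56 ± 0.42, adjusted p = 0.017), and the call was lost without DH-LMP2A replicate 2, DH-LMP2A replicate 3, DH-LMP2A replicate 4, WT replicate 2, WT replicate 3, WT replicate 4 and WT replicate 5 in turn (largest adjusted p = 0.13). These copies are close in sequence, so their reads may be shared, and an allele that differs from the reference can lose reads. In the MHC class I list, which does not hold H2-Q5, H2-Q6 and H2-Q7 were the 2 of 19 called in each fit. Over all genes, 0.352% were called lower without the block and 1.58% with it. Of the 19, 18 had a negative log2 fold change (median -0.54, -0.56 with the block), and the median was -0.06 without WT replicate 2. B2m, the shared light chain of class I molecules, was at 385 to 1049 CPM in DH-LMP2A against 703 to 1353 CPM in WT (log2 fold change -0.54 ± 0.36, adjusted p = 0.57).

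Nxpe4, Nxpe2 and Cldn34c1 were nearly silent in DH-LMP2A, and Coil, Pydc3 and Ppp1r3e were lower but detected. Nxpe4 and Cldn34c1 are on a list taken from earlier results of these data, so their calls are not independent evidence. Nxpe4 was at 0.337, 0.519, 0.343 and 0.358 CPM in DH-LMP2A and 22, 20.4, 9.73, 10.1 and 11.1 CPM in WT (log2 fold change -5.21 ± 0.36, adjusted p = 1.8e-05; block -5.45 ± 0.29, adjusted p = 1.9e-05). Its neighbour Nxpe2 was at 0.337, 0.185, 0.343 and 0.0448 CPM in DH-LMP2A and 12, 7.66, 6.93, 6.4 and 7.34 CPM in WT (log2 fold change -5.13 ± 0.54, adjusted p = 9.6e-04; block -5.27 ± 0.41, adjusted p = 4.1e-04). The pair belongs to the neurexophilin and PC-esterase domain family. Cldn34c1, a claudin family gene on the X chromosome, had 2 reads in total in DH-LMP2A and 3.41 to 5.08 CPM in WT (adjusted p = 6.2e-05, with the block 4.8e-04). Coil, encoding coilin of the nuclear Cajal body, was at 7.63, 7.15, 5.82 and 6.22 CPM in DH-LMP2A and 69.8, 70.4, 23.9, 25.1 and 24 CPM in WT (log2 fold change -2.66 ± 0.37, adjusted p = 0.0067; block -2.69 ± 0.30, adjusted p = 0.0024). The WT pools held more of it than the single mice, and all 5 lay above DH-LMP2A. Pydc3, a pyrin domain gene of the interferon-inducible cluster on chromosome 1, was at 0.926 to 2.23 CPM in DH-LMP2A against 12.3 to 26.7 CPM in WT (log2 fold change -3.50 ± 0.43, adjusted p = 0.0026; block -3.50 ± 0.38, adjusted p = 0.0024), and Ppp1r3e, a glycogen-targeting subunit of protein phosphatase 1, at 1.83 to 2.47 CPM in DH-LMP2A against 5.41 to 8.28 CPM in WT (log2 fold change -1.61 ± 0.23, adjusted p = 0.0074; block -1.66 ± 0.21, adjusted p = 0.005). In LCDD these genes were also low: Nxpe4 was at 0.269 to 0.485 CPM, Nxpe2 at 0.0753 to 0.384 CPM, Coil at 6.89 to 9.91 CPM, Pydc3 at 0.592 to 2.42 CPM, and Cldn34c1 had 1 read in 1 library. Ppp1r3e was at 2.68 to 4.74 CPM.

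The calls of Arl2bp, Mylk3, Mcm6, H2-Q6, H2-Q7, Nxpe4, Nxpe2, Cldn34c1, Coil, Pydc3 and Ppp1r3e held in all 9 leave-one-out fits and with only the WT pools as controls. All of these but Mcm6 were also called with the log2 level of Y-linked genes as a covariate, for which Mcm6 had an adjusted p of 0.099. With the linear Y-linked level as covariate 7 genes were called (0.0418%), all lower: Arl2bp, Mylk3, Nxpe4, Nxpe2, H2-Q6, H2-Q7 and 2610305D13Rik. The last, a predicted zinc finger gene on chromosome 4, had 0 reads in all DH-LMP2A libraries and 3.21 to 7.54 CPM in WT (log2 fold change of at most -5.37 against the floor of 3 counts per library, adjusted p = 0.0012); it was named after its values were seen.

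**Figure D3:**
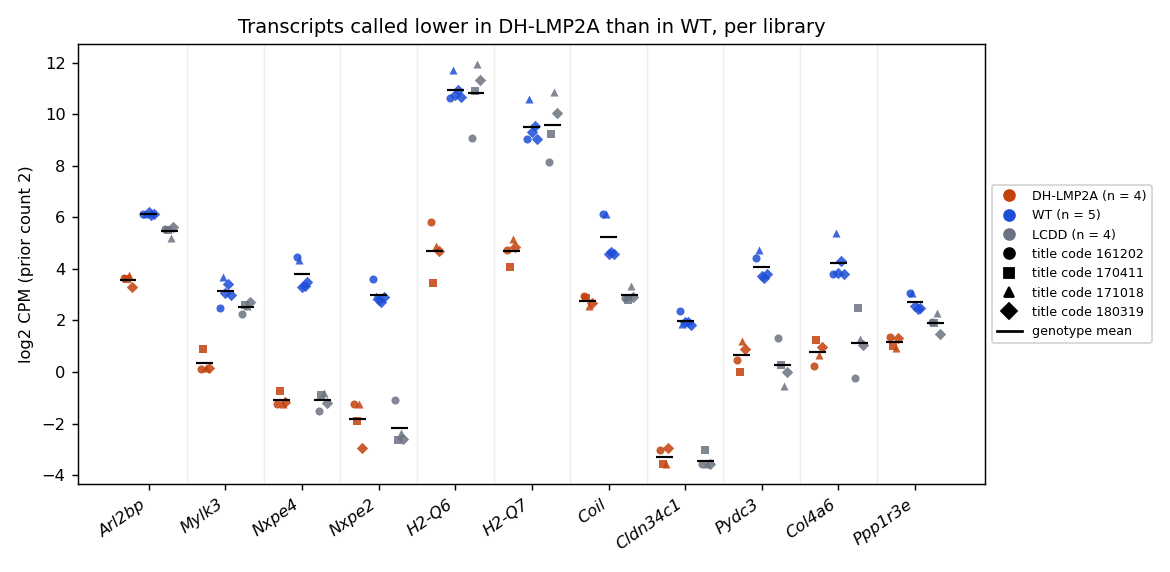
log2 CPM (prior count 2) of 11 transcripts called lower in DH-LMP2A than in WT, per library, coloured by genotype and shaped by title code, with genotype means as lines. DH-LMP2A and WT libraries do not overlap for any of the 11, which were picked among called genes. Of all genes, 2.33% lie below WT in every DH-LMP2A library. LCDD libraries lie near WT for H2-Q6 and H2-Q7 and near DH-LMP2A for Nxpe4, Nxpe2, Coil and Cldn34c1.

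Some called genes were neighbours. On the mouse build GRCm38 of the deposited table, 13 pairs of called genes, made of 19 genes, lie within 200 kb, and in all 13 both members changed in the same direction; the share of such pairs over all genes was not computed. Nxpe2 (chr9:48318006-48353454) and Nxpe4 (chr9:48362041-48400025) are 8587 bases apart. H2-Q5 (chr17:35394126-35397800), H2-Q6 (chr17:35424850-35430055) and H2-Q7 (chr17:35439155-35443773) form one cluster, and Coil (chr11:88970252-88991613) overlaps 2210409E12Rik and lies beside Gm15698, both called lower. Some pairs are gene copies (Cyp4a12a with Cyp4a12b, and Ugt2b5, Ugt2b37 and Ugt2b38) or overlap in the annotation, which the counting may not separate. On chromosome 4, 2610305D13Rik (chr4:147611937-147642513) and Gm13145 (chr4:147361303-147391004, 0 reads in DH-LMP2A) were called, and Angptl7 (chr4:148495183-148500460) and Masp2 (chr4:148602554-148615499) were called with the block. This stretch was picked after its values were seen.

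Angptl7, a secreted angiopoietin-like protein, was at 49.4, 148, 97 and 97.2 CPM in DH-LMP2A and 1.04, 6.12, 17.9, 19.1 and 14.8 CPM in WT, without overlap (log2 fold change 3.06 ± 0.64, adjusted p = 0.052; block 3.62 ± 0.50, adjusted p = 0.0077). It is on the list taken from earlier results of these data, which also holds Nxpe4 and Cldn34c1, and is not independent evidence. In LCDD it was at 0.882 to 4.36 CPM (log2 difference 5.34 ± 0.78, adjusted p = 0.0048). Masp2, a protease of the lectin pathway of complement, was at 1.23, 3.37, 5.25 and 6.04 CPM in DH-LMP2A and 0.129, 0.0618, 1.44, 1.75 and 0.973 CPM in WT (log2 fold change 2.17 ± 0.70, adjusted p = 0.22; block 2.97 ± 0.50, adjusted p = 0.019). Its relative Masp1, on chromosome 16, was at 1.53, 3.89, 5.65 and 5.69 CPM in DH-LMP2A and 0.129, 1.92, 0.601, 0.671 and 0.527 CPM in WT (log2 fold change 2.48 ± 0.67, adjusted p = 0.14; block 2.83 ± 0.37, adjusted p = 0.0062). WT replicate 2 lay above DH-LMP2A replicate 1 for Masp1, and WT replicates 3 and 4 did so for Masp2. Of the 27 tested complement and coagulation genes, F8 was called lower without the block, and with the block Masp1 and Masp2 were higher and F8 and C1s1 lower. Over all genes, 0.352% were called lower without the block, and 1.77% higher and 1.58% lower with it. F8, coagulation factor VIII, which endothelium makes, was at 65.4, 68, 39.9 and 47.5 CPM in DH-LMP2A and 199.9, 81.4, 186, 175 and 221 CPM in WT (log2 fold change -1.64 ± 0.33, adjusted p = 0.048; block -1.75 ± 0.23, adjusted p = 0.0067), and the call was lost without DH-LMP2A replicate 1, DH-LMP2A replicate 2, DH-LMP2A replicate 3, DH-LMP2A replicate 4, WT replicate 3, WT replicate 4 and WT replicate 5 in turn (largest adjusted p = 0.16). C1s1, a protease of the first complement component, was at 78.4 to 98.7 CPM in DH-LMP2A against 137 to 233 CPM in WT (log2 fold change -0.85 ± 0.19, adjusted p = 0.068; block -0.84 ± 0.20, adjusted p = 0.049).

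Genes with male-biased expression in the kidney, most of them enzymes and transporters of the proximal tubule, were higher in DH-LMP2A. Of 15 tested, 10 were called higher and 0 lower, and 11 higher with the block, against 0.275% and 1.77% of all genes. The median was 4.59 (3.88 with the block). Slco1a1, an organic anion transporter, was at 12.4, 47.4, 14.9 and 1.07 CPM in DH-LMP2A and 0, 0.494, 0, 0 and 0 CPM in WT (log2 fold change 7.93 ± 1.22, adjusted p = 0.013; block 6.75 ± 1.15, adjusted p = 0.019). It was undetected in 4 WT libraries. Cyp2j13, a cytochrome P450, was at 20.8, 47.6, 16.5 and 2.95 CPM in DH-LMP2A and 0.291, 0.556, 0, 0 and 0.0811 CPM in WT (log2 fold change 6.96 ± 0.92, adjusted p = 0.0044; block 5.95 ± 0.61, adjusted p = 0.0017). Cyp4a12a, a male-specific fatty acid hydroxylase, was at 33.9, 63.1, 25.5 and 3.58 CPM in DH-LMP2A and 0.679, 0.247, 0.16, 0.0895 and 0.689 CPM in WT (log2 fold change 6.33 ± 0.78, adjusted p = 0.0026; block 5.48 ± 0.67, adjusted p = 0.0042). In each of these genes DH-LMP2A replicate 2 was the highest and replicate 4 the lowest DH-LMP2A library, and none overlapped with WT. Kap, the kidney androgen-regulated protein, was at 942, 1216, 470.1 and 62.7 CPM in DH-LMP2A and 106, 49.7, 25.2, 8.46 and 43.8 CPM in WT (log2 fold change 3.85 ± 0.78, adjusted p = 0.048; block 3.01 ± 0.62, adjusted p = 0.035). DH-LMP2A replicate 4 lay below WT replicate 1, and the call was lost without DH-LMP2A replicate 1, DH-LMP2A replicate 2, DH-LMP2A replicate 3, WT replicate 2, WT replicate 3, WT replicate 4 and WT replicate 5 in turn (largest adjusted p = 0.18).

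Slc7a13, a cystine transporter of the tubule, was at 1.3 to 37.7 CPM in DH-LMP2A against 0 to 0.865 CPM in WT (log2 fold change 6.64 ± 1.08, adjusted p = 0.018; block 5.83 ± 1.08, adjusted p = 0.025). Acsm3, an acyl-CoA synthetase, was at 2.15 to 48.8 CPM in DH-LMP2A against 0.0447 to 0.556 CPM in WT (log2 fold change 6.15 ± 0.90, adjusted p = 0.0093; block 5.01 ± 0.75, adjusted p = 0.011), and the glucuronosyltransferase Ugt2b38 at 7.92 to 107 CPM in DH-LMP2A against 0.0801 to 1.42 CPM in WT (log2 fold change 6.27 ± 0.84, adjusted p = 0.0046; block 5.35 ± 0.65, adjusted p = 0.0041). Acsm3 overlaps the expressed gene Eri2 in the annotation. Overlaps found for Slc7a13 rest on spans joined over all entries of a symbol and may not be real. Smaller or less stable rises were called for Ugt2b37 (log2 fold change 5.84 ± 0.97, adjusted p = 0.019), Ugt2b5 (log2 fold change 5.33 ± 0.93, adjusted p = 0.025), Cyp4a12b (log2 fold change 4.59 ± 0.76, adjusted p = 0.019), Cyp2d9 (log2 fold change 4.47 ± 0.79, adjusted p = 0.027), the esterase Ces1f (log2 fold change 4.76 ± 0.93, adjusted p = 0.04) and the ethanol-inducible Cyp2e1 (log2 fold change 4.62 ± 0.90, adjusted p = 0.04). Cyp2e1 was at 11.3 to 160.0 CPM in DH-LMP2A against 0.313 to 8.12 CPM in WT. Of the genes named in the 2 paragraphs on these genes, Slco1a1, Cyp2j13, Cyp4a12a, Acsm3 and Ugt2b38 kept their call in all 9 leave-one-out fits. The others lost it in 3 to 7 of the 9, among them the fits without DH-LMP2A replicate 2 and without WT replicate 3, with adjusted p up to 0.18. In the list of cytochrome P450, glucuronosyltransferase and sulfotransferase genes, which shares members with the male-biased list, 7 of 24 were called higher, 8 with the block, and 0 lower. Over all genes, 0.275% were called higher without the block and 1.77% with it.

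Y-linked transcripts were also higher in DH-LMP2A, but did not rank the libraries as the male-biased genes did. Ddx3y, a Y-linked RNA helicase, was at 50, 85.1, 24.8 and 53 CPM in DH-LMP2A and 0, 12.2, 0.04, 0 and 0 CPM in WT, so WT replicate 2 was the 1 WT library with Y-linked reads above the floor (log2 fold change 4.58 ± 1.43, adjusted p = 0.2; block 6.23 ± 1.38, adjusted p = 0.043). All 4 Y-linked genes were higher in every DH-LMP2A library than in any WT library, beside 2.64% of all genes. They were called with the block only, and without WT replicate 2 in the fit without it. Xist, the RNA of the inactive X chromosome of females, was at 102, 38, 1001 and 786 CPM in DH-LMP2A and 645, 557, 1654, 1362 and 1026 CPM in WT, overlapping between genotypes (log2 fold change -1.12 ± 1.22, adjusted p = 0.74). Both Y-linked RNA and Xist were thus present in each DH-LMP2A pool and in the second WT pool. With genotype, Y-linked level and the title code all unevenly spread, they cannot be told apart. With the log2 Y-linked level as covariate, 36 genes were called (0.215%), 1 of them higher (0.00597%), and 0 of the 15 male-biased genes, and with the linear level, chosen after the data were seen, also 0. Their median log2 fold change was 4.13 and 4.46 under these covariates, beside 4.59 without them. With only the WT pools as controls 0 were called (0.398% of all genes) at a median of 3.53, and without WT replicate 2, 8 (0.528%).

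The 20 proximal tubule markers were all positive (median 0.99) with 0 called in either fit. Within WT the library with the highest tubule mean also had the highest male-biased mean, and in both genotypes the library with the lowest tubule mean had the lowest male-biased mean. WT replicate 1 had as much tubule signal as DH-LMP2A replicate 1, under the same title code (7.42 and 7.42 log2 CPM), while its male-biased mean was 1.98 against 5.30. The male-biased mean minus the proximal tubule mean was -2.12, -0.81, -0.85 and -2.23 log2 units in DH-LMP2A and -5.45, -1.83, -3.61, -2.93 and -4.11 in WT. WT replicate 2, with Y-linked reads, fell within the DH-LMP2A range, and the other WT libraries lay below it. With the proximal tubule mean as covariate, 9 of the 15 male-biased genes were called, against 2.82% of all genes, with a median of 3.59. Female-biased kidney genes were not called: 0 of 5 in either fit, median 0.10. LCDD libraries had male-biased means of 3.64 to 4.67 log2 CPM. These include replicates 2 and 4, whose Y-linked means of 2.19 and 1.98 were below the 2.58 of WT replicate 2. The cause of the differences in male-biased genes was not tested.

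**Figure D4:**
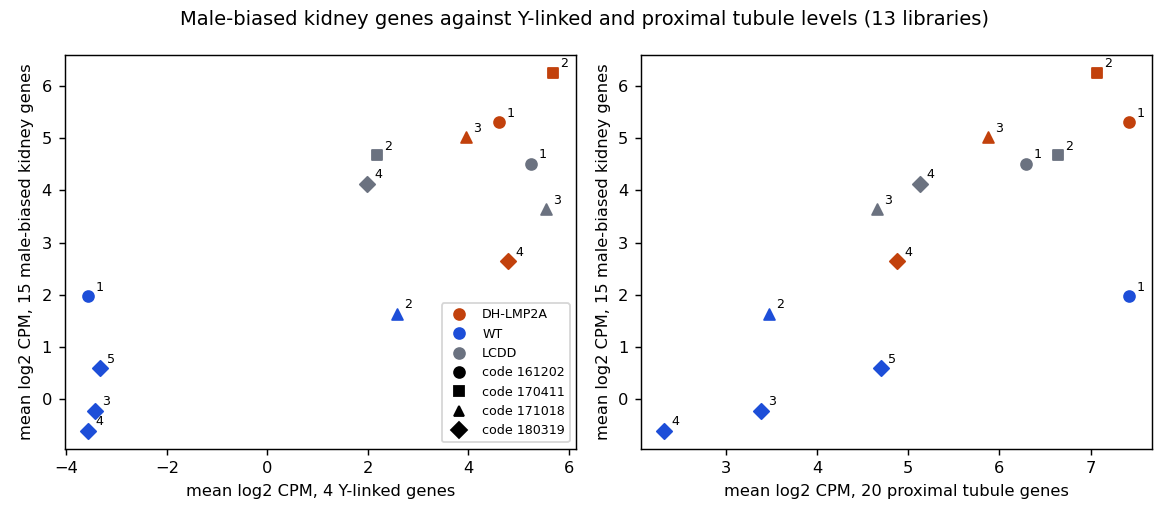
Mean log2 CPM of 15 male-biased kidney genes in each of the 13 libraries against the mean of 4 Y-linked genes (left) and of 20 proximal tubule genes (right), with replicate numbers beside the points. WT libraries lie lowest on the vertical axis, up to 1.98, and WT replicate 1 does so at a tubule level equal to that of DH-LMP2A replicate 1.

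Genes of the circadian clock formed a group that was singled out after the values were seen. As background, ARNTL (BMAL1) with CLOCK or NPAS2 activates transcription at E-boxes, period and cryptochrome proteins repress it, REV-ERB and ROR proteins set Arntl itself, and the PAR bZIP factors DBP, TEF and HLF act on D-boxes. Arntl and its targets peak in opposite phases of the day. The time of day at which kidneys were taken is not given in the labels. Promoter sequences are printed for 4 genes called higher and for Arntl, to show which of these elements lie at their start sites. Each runs from 250 bases before to 50 bases after a RefSeq start on GRCm38.p6, 5′ to 3′, and capitals mark an E-box (CACGTG), a D-box (TTATGTAA or TTACGTAA) or the core bound by REV-ERB and ROR (TAGGTCA), on either strand. The 3 elements occur in 7.15%, 1.05% and 2.61% of 32817 promoters of this length.

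Ciart, chr3:95882179-95882478, minus strand: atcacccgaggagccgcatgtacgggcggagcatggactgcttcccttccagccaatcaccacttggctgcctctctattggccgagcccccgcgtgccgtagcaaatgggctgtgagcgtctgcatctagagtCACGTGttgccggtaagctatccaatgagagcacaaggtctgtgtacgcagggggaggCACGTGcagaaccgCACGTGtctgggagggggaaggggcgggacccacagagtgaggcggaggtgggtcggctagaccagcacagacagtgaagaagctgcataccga
Bhlhe41, chr6:145865371-145865670, minus strand: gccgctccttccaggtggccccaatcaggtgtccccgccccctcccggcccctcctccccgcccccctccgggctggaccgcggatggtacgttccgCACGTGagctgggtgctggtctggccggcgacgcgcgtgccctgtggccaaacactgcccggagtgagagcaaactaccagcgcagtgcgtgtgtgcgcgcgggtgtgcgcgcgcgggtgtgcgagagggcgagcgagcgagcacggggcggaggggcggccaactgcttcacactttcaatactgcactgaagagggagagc
Tef, chr15:81802423-81802722, plus strand: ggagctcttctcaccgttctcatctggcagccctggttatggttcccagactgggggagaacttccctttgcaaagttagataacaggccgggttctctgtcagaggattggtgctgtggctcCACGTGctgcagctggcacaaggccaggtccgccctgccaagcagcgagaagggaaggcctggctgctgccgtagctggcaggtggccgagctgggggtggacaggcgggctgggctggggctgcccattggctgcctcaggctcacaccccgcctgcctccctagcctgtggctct
Per3, chr4:151044616-151044915, minus strand: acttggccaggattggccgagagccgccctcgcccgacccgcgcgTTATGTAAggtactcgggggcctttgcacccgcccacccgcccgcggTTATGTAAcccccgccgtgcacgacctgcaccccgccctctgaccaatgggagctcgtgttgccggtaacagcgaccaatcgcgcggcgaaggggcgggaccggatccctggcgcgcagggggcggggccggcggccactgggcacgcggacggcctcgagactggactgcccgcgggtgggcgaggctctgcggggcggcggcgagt
Arntl, chr7:113207261-113207560, plus strand: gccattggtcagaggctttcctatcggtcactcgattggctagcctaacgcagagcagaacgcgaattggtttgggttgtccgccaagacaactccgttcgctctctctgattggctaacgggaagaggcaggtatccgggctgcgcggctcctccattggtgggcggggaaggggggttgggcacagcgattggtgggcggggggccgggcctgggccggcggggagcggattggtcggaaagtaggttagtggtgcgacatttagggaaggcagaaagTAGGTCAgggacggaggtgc

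The Ciart window holds 3 E-boxes, and those of Bhlhe41 and Tef 1 each. That of Per3 holds 2 D-boxes and no E-box. The printed Arntl window holds 1 REV-ERB and ROR core, while the other Arntl window (chr7:113207215-113207514) holds none. Of 17 clock genes with an entry, 5 hold an E-box, 1 a D-box and 2 the core in at least 1 window. Such a match is a description of the letters and no evidence of binding.

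Some repressors and output genes of the clock were higher in DH-LMP2A. Of the 21 genes, 5 were called higher and 0 lower, and with the block 10 higher and 2 lower, beside 0.275% and 0.352% of all genes without the block and 1.77% and 1.58% with it. The median was 1.09, and 10 genes lay above WT and 2 below in every library, beside 2.64% and 2.33% of all genes. The list was chosen after its values were seen, so these counts support nothing. Per2, a core repressor, was at 70.2, 237, 131 and 216 CPM in DH-LMP2A and 37.7, 32.8, 18.7, 10.7 and 36.5 CPM in WT (log2 fold change 2.58 ± 0.41, adjusted p = 0.016; block 2.42 ± 0.45, adjusted p = 0.025). Per3 was at 34.9, 208, 92 and 163 CPM in DH-LMP2A and 30.3, 20.1, 9.29, 7.56 and 20.9 CPM in WT (log2 fold change 2.82 ± 0.51, adjusted p = 0.029; block 2.58 ± 0.58, adjusted p = 0.044). Ciart, a repressor of the CLOCK and ARNTL pair, was at 6.32, 17.8, 9.02 and 19.3 CPM in DH-LMP2A and 3.17, 1.92, 0.44, 0.403 and 0.973 CPM in WT (log2 fold change 3.24 ± 0.61, adjusted p = 0.033; block 3.17 ± 0.65, adjusted p = 0.034). For each of these genes the groups did not overlap, DH-LMP2A replicate 1 was the lowest of its genotype, and the single-mouse WT replicates 3 and 4 were the lowest of WT. Bhlhe41, a further repressor, was at 24.7, 43.1, 31 and 89.3 CPM in DH-LMP2A and 11.6, 6.49, 2.96, 2.42 and 9 CPM in WT (log2 fold change 2.85 ± 0.56, adjusted p = 0.04; block 2.81 ± 0.59, adjusted p = 0.035), and Tef, a PAR bZIP activator, at 310.2, 625, 418 and 621 CPM in DH-LMP2A and 201, 198, 95.3, 99.2 and 203 CPM in WT (log2 fold change 1.63 ± 0.30, adjusted p = 0.031; block 1.54 ± 0.33, adjusted p = 0.039). Per2 lost its call without DH-LMP2A replicate 2 and WT replicate 3 in turn, and Per3, Ciart, Bhlhe41 and Tef lost theirs in 7 of the 9 leave-one-out fits, remaining called without DH-LMP2A replicate 1 or WT replicate 1 (largest adjusted p = 0.13).

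Dbp, the best known output of the clock, was at 187, 321, 279 and 503 CPM in DH-LMP2A and 78.3, 62, 11.7, 11.3 and 74 CPM in WT, without overlap and just short of the threshold in both fits (log2 fold change 2.76 ± 0.58, adjusted p = 0.053; block 2.74 ± 0.66, adjusted p = 0.052). Usp2, a clock-controlled deubiquitinase, was at 17.3 to 43.7 CPM in DH-LMP2A against 3.64 to 16.1 CPM in WT (log2 fold change 2.18 ± 0.45, adjusted p = 0.052; block 2.07 ± 0.30, adjusted p = 0.0093). Per1, Cry2, Nr1d2 and Wee1 were also called higher with the block only (1.27, 1.38, 1.13 and 1.32). Arntl and Nfil3 were lower with the block. Arntl was at 18.2, 3.41, 11.9 and 3.27 CPM in DH-LMP2A and 36.5, 38.7, 61.3, 64.9 and 38.5 CPM in WT, so each DH-LMP2A library was below each WT library (log2 fold change -2.38 ± 0.55, adjusted p = 0.083; block -2.56 ± 0.54, adjusted p = 0.038). Npas2 was at 3.85, 0.482, 3.08 and 0.716 CPM in DH-LMP2A and 5.76, 12, 29, 25.2 and 11.6 CPM in WT (log2 fold change -3.04 ± 0.80, adjusted p = 0.13; block -2.82 ± 0.86, adjusted p = 0.094). Nfil3, a repressor of the D-box, was at 6.14, 2.48, 3.14 and 2.19 CPM in DH-LMP2A and 7.8, 11, 9.37, 9.62 and 5.23 CPM in WT (log2 fold change -1.30 ± 0.32, adjusted p = 0.11; block -1.48 ± 0.33, adjusted p = 0.043). WT replicates 3 and 4 held the most Arntl and Npas2 as well as the least Dbp and Per3. Clock (-0.52), Cry1 (0.25, -0.08 with the block) and Rora (0.15) were not called in either fit, nor were Bhlhe40, Nr1d1 and Hlf.

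The clock genes lost their calls under other settings: 0 of 21 were called under either Y-linked covariate or with only the WT pools as controls, 2 without WT replicate 2, and 9 with the proximal tubule covariate. The median of the 21 was 1.09 without covariates. It was 1.28 with the log2 and 1.22 with the linear Y-linked level, and 1.02 with only the WT pools. Genotype and Y-linked level are unevenly spread, so these medians cannot tell their parts apart. Per2 was at a log2 fold change of 2.56 (adjusted p = 0.41) with the log2 Y-linked covariate, 2.71 (adjusted p = 0.24) with the linear one and 2.19 (adjusted p = 0.11) without the single mice. Within title codes, the Per2 difference was 0.90 log2 units between replicates 1, 2.0 between DH-LMP2A replicate 3 and WT replicate 2, and 3.47 between DH-LMP2A replicate 4 and the single mice. The Arntl differences were -1.0, -1.69 and -4.0, with 1 DH-LMP2A library in each. LCDD libraries were at 55.4 to 115 CPM for Per2, 38.7 to 86.2 CPM for Per3 and 89.5 to 259 CPM for Dbp, and Arntl was at 7.3 to 25.2 CPM there. Between DH-LMP2A and LCDD, Per2 did not pass the adjusted threshold (log2 difference 1.05 ± 0.43, adjusted p = 0.29). Per3, Dbp, Usp2 and Nr1d1 overlap other expressed genes in the annotation.

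**Figure D5:**
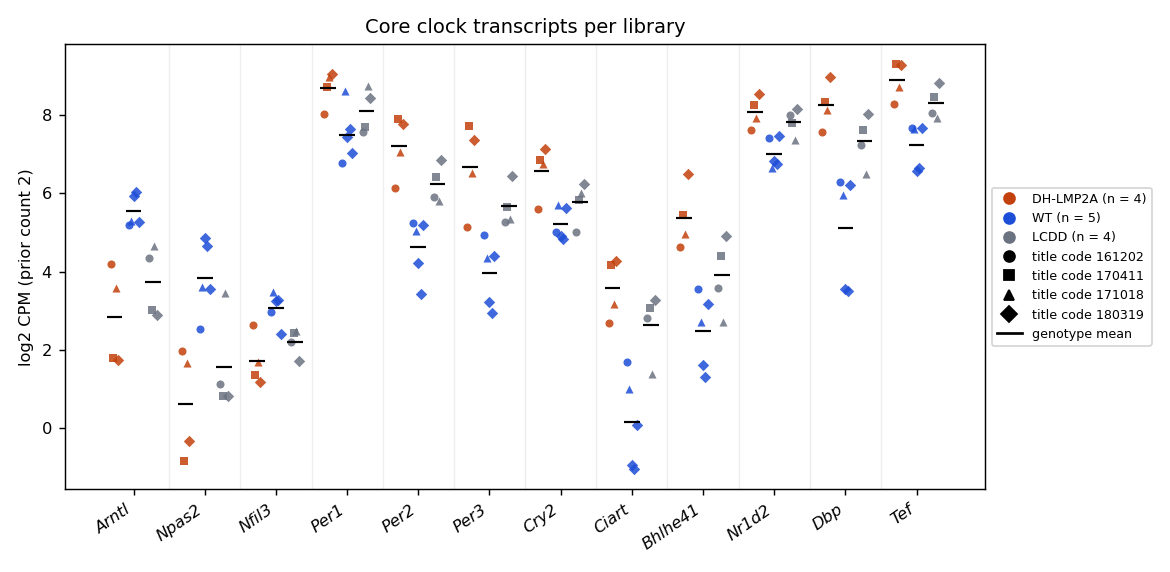
log2 CPM (prior count 2) of 12 clock genes per library, coloured by genotype and shaped by title code, with genotype means as lines. Arntl, Npas2 and Nfil3 have their DH-LMP2A means below WT and the other 9 above, and LCDD means lie between for most genes.

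As lists, podocyte and mesangial markers had medians near 0, and endothelial markers were mostly negative. Of 24 podocyte genes 0 were called without the block (median 0.01), and of 18 mesangial genes 0 in either fit (median 0.02). Nphs1, encoding nephrin of the slit diaphragm, was at 1176 to 3759.8 CPM in DH-LMP2A against 1145 to 3361 CPM in WT (log2 fold change 0.09 ± 0.51, adjusted p = 0.96). Ptpro, a receptor phosphatase of podocytes, departed from its list. It was at 218, 339, 495 and 486 CPM in DH-LMP2A and 574, 1548, 1710.1, 1922 and 1374 CPM in WT. Each DH-LMP2A library was below each WT library, with WT replicate 1 nearest (log2 fold change -1.89 ± 0.41, adjusted p = 0.059; block -1.61 ± 0.14, adjusted p = 4.8e-04), and in LCDD it was at 150.3 to 445 CPM. Trpc6, a podocyte calcium channel with the next smallest p, was at 13.9 to 19.2 CPM in DH-LMP2A against 8.92 to 14.5 CPM in WT (log2 fold change 0.49 ± 0.17, adjusted p = 0.27; block 0.54 ± 0.17, adjusted p = 0.099). Of 20 endothelial genes, 18 had a negative log2 fold change (median -0.56, -0.73 with the block), with 0 called without the block and 4 lower with it, Cdh5, Kdr, Flt1 and Sox18. Over all genes, 1.58% were called lower with the block. Kdr, the main VEGF receptor, was at 2203, 1229, 805 and 542 CPM in DH-LMP2A and 2641, 1716, 2065, 1758 and 2828 CPM in WT, overlapping between genotypes (log2 fold change -0.88 ± 0.43, adjusted p = 0.43; block -1.40 ± 0.33, adjusted p = 0.049). Cdh5, the endothelial cadherin, was at 568, 359.9, 271 and 228 CPM in DH-LMP2A and 678, 599.9, 607, 564 and 800.0 CPM in WT (log2 fold change -0.87 ± 0.31, adjusted p = 0.27; block -1.19 ± 0.25, adjusted p = 0.034). DH-LMP2A replicate 1 was the highest of its genotype in both. Lpl, lipoprotein lipase, was at 123 to 671 CPM in DH-LMP2A against 681 to 852 CPM in WT and was not called (log2 fold change -1.12 ± 0.41, adjusted p = 0.27; block -1.08 ± 0.38, adjusted p = 0.14).

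Of 6 tested collagen IV genes, Col4a6, encoding the alpha-6 chain, was the 1 called without the block. Col4a6 was at 1.09, 2.3, 1.48 and 1.88 CPM in DH-LMP2A and 13.7, 41.9, 14.2, 19.6 and 13.7 CPM in WT, without overlap (log2 fold change -3.60 ± 0.56, adjusted p = 0.013; block -3.86 ± 0.36, adjusted p = 7.4e-04), and the call was lost without DH-LMP2A replicate 2 and DH-LMP2A replicate 3 in turn (largest adjusted p = 0.062). In LCDD it was at 0.767 to 5.57 CPM. The chains Col4a1 and Col4a2, which form the ubiquitous collagen IV network, were lower with the block only. Col4a1 was at 908, 591, 621 and 518 CPM in DH-LMP2A and 1015, 1638, 1319.7, 1045 and 1180.0 CPM in WT (log2 fold change -0.91 ± 0.26, adjusted p = 0.16; block -1.09 ± 0.25, adjusted p = 0.047) and Col4a2 at 325 to 654 CPM in DH-LMP2A against 681 to 1077 CPM in WT (log2 fold change -0.84 ± 0.26, adjusted p = 0.2; block -1.05 ± 0.24, adjusted p = 0.047); the genes share a bidirectional promoter, overlap in the annotation and may share reads. The 3 chains of the mature glomerular network were not called in either fit. Of 15 laminin and basement membrane genes, 1 was called lower, with the block: Col15a1. Lama1 was at 2.63 to 5.28 CPM in DH-LMP2A against 0.24 to 4.4 CPM in WT (log2 fold change 1.46 ± 0.63, adjusted p = 0.36) and Lama4 at 23.8 to 65.9 CPM in DH-LMP2A against 42.4 to 81.7 CPM in WT (log2 fold change -0.50 ± 0.30, adjusted p = 0.53). Fibrillar collagen and interstitial matrix genes gave 0 calls of 19 in either fit (median 0.37), and of 22 TGF-beta pathway genes 2 were lower with the block, Smad7, an inhibitor of the pathway (-0.89 ± 0.20, adjusted p = 0.044), and the receptor Tgfbr2. Skil, another inhibitor, was not called (log2 fold change -0.62 ± 0.25, adjusted p = 0.34).

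Immune genes mostly had negative log2 fold changes without passing the test. Of 20 macrophage and monocyte genes, 19 were negative (median -0.99), and without WT replicate 2 the median was -0.45. Ccr2 and Cx3cr1, chemokine receptors of monocytes, were called lower with the block. C1qb, a complement subunit made by macrophages, was at 1.8, 0.37, 0.343 and 0.269 CPM in DH-LMP2A and 1.84, 31.9, 1.04, 1.79 and 1.3 CPM in WT, with WT replicate 2 far above all others (log2 fold change -3.40 ± 1.19, adjusted p = 0.26), and the integrin Itgax was at 1.57 to 3.78 CPM in DH-LMP2A against 3.16 to 14 CPM in WT (log2 fold change -1.32 ± 0.47, adjusted p = 0.27). All 30 interferon response genes were negative (median -0.84), and without WT replicate 2 the median was -0.01. Ifi44 was the 1 called, with the block: it was at 28 to 41.6 CPM in DH-LMP2A against 54.7 to 85.8 CPM in WT (log2 fold change -0.91 ± 0.24, adjusted p = 0.13; block -1.05 ± 0.22, adjusted p = 0.035). Gbp7 was at 42.2 to 54.1 CPM in DH-LMP2A against 46.4 to 80.3 CPM in WT (log2 fold change -0.42 ± 0.16, adjusted p = 0.3). MHC class II genes had a median of -0.90 (-0.35 without WT replicate 2), with 0 of 11 called, and H2-Oa with the block (-2.25 ± 0.43, adjusted p = 0.028); H2-Eb1 was at 7.79 to 27.1 CPM in DH-LMP2A against 15 to 75.7 CPM in WT (log2 fold change -1.17 ± 0.51, adjusted p = 0.37). Of 18 T and NK cell genes 0 were called in either fit, and 15 were negative. The lists of parietal epithelial, loop and distal tubule, collecting duct and red cell markers, of X inactivation and escape genes and of immunoglobulin transport and Fc receptor genes also held 0 called genes in either fit, with medians from -0.57 to 0.65.

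Of 18 injury and inflammation genes, 0 were called without the block and 2 were lower with it, the endothelial adhesion molecules Icam1 and Sele. The median of the list was -0.52, and -0.08 without WT replicate 2. Icam1 was at 17 to 36 CPM in DH-LMP2A against 28.7 to 90.4 CPM in WT (log2 fold change -1.18 ± 0.36, adjusted p = 0.19; block -1.45 ± 0.31, adjusted p = 0.039), and Sele at 0.4 to 2.02 CPM in DH-LMP2A against 2.03 to 13.8 CPM in WT (log2 fold change -2.41 ± 0.76, adjusted p = 0.2; block -3.05 ± 0.57, adjusted p = 0.026). Both chaperone genes Hsph1 and Hsp90aa1 were higher with the block. Hsph1, a heat shock protein, was at 267, 135, 129 and 193 CPM in DH-LMP2A and 109, 82.5, 79.9, 78.7 and 58 CPM in WT, without overlap (log2 fold change 1.15 ± 0.30, adjusted p = 0.12; block 1.19 ± 0.16, adjusted p = 0.0065), and Hsp90aa1 was at 261 to 466 CPM in DH-LMP2A against 151 to 261 CPM in WT (log2 fold change 0.59 ± 0.22, adjusted p = 0.3; block 0.77 ± 0.14, adjusted p = 0.022). They were the 2 called of 20 immediate early and heat shock genes. Dnajb1 was at 57.6 to 102 CPM in DH-LMP2A against 35 to 58.4 CPM in WT (log2 fold change 0.70 ± 0.19, adjusted p = 0.14; block 0.64 ± 0.18, adjusted p = 0.072). Of 20 genes of the unfolded protein response, Herpud1, a component of endoplasmic reticulum degradation, was called higher with the block (0.57 ± 0.09, adjusted p = 0.012), and Asns was not called (log2 fold change -0.67 ± 0.27, adjusted p = 0.33). Oxidative phosphorylation genes gave 0 of 24 in either fit (median 0.09). In the renin-angiotensin list, Agt, encoding angiotensinogen, was lower with the block. All DH-LMP2A libraries were at or below the floor, at 0 to 0.112 CPM, and WT at 0.0447 to 5.69 CPM (adjusted p = 0.17, with the block 0.037). Ren1, renin, was at 204 to 489 CPM in DH-LMP2A against 82.2 to 234 CPM in WT (log2 fold change 1.17 ± 0.43, adjusted p = 0.28; block 0.92 ± 0.41, adjusted p = 0.23).

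Among the other genes with large falls, 4 named here were unstable. Eps8l1, an actin regulator, was at 1.31, 0.963, 0.971 and 0.985 CPM in DH-LMP2A and 22.9, 24.1, 3.84, 1.79 and 5.72 CPM in WT, with the WT pools high and the single mice nearer to DH-LMP2A (log2 fold change -3.45 ± 0.71, adjusted p = 0.049; block -3.50 ± 0.57, adjusted p = 0.017). Cyp26a1, which degrades retinoic acid, was at 0.299, 0.111, 0.4 and 0.224 CPM in DH-LMP2A and 0.971, 14.6, 1.56, 3.98 and 4.22 CPM in WT (log2 fold change -4.29 ± 0.79, adjusted p = 0.031; block -3.98 ± 0.66, adjusted p = 0.018). Cacna1s, a muscle calcium channel, was at 0.171 to 0.519 CPM in DH-LMP2A against 0.938 to 4.94 CPM in WT (log2 fold change -2.76 ± 0.56, adjusted p = 0.049; block -2.77 ± 0.51, adjusted p = 0.024), and the pseudogene Wsb2-ps at 0.0748 to 0.403 CPM in DH-LMP2A against 0.556 to 4.47 CPM in WT (log2 fold change -3.60 ± 0.70, adjusted p = 0.04; block -3.01 ± 0.41, adjusted p = 0.0076). Each of these 4 calls was lost when any one DH-LMP2A library, or certain WT libraries, were left out, with adjusted p up to 0.2. Ccdc28b, a ciliary gene, fell by a smaller step but evenly. It was at 8.98, 8.59, 11.2 and 8.1 CPM in DH-LMP2A and 21.7, 27.2, 15.7, 17.4 and 17.3 CPM in WT (log2 fold change -1.11 ± 0.18, adjusted p = 0.016; block -1.16 ± 0.10, adjusted p = 4.8e-04), and the call was lost without DH-LMP2A replicate 2 and DH-LMP2A replicate 4 in turn (largest adjusted p = 0.077). In LCDD it was at 26 to 34.8 CPM (log2 difference -1.63 ± 0.19, adjusted p = 7.5e-04). It overlaps Tmem234 in the annotation. Of the 39 called genes among those named, 18 kept their call in all 9 leave-one-out fits.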

How the data were processed

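RNA of bead-purified mouse glomeruli was sequenced as stranded poly(A) libraries, per the labels' protocols. The deposited table holds raw counts per gene, which the authors made with featureCounts, per the file headers; STAR 2.4.0a, Subread 1.5.0-p3 and DESeq2 are named in the submitters' processing notes, with builds mm10 and GRCm38. The strand and multi-mapping settings are not given in the sources used here. 0 count columns were left unmapped, and 27 symbols appear as dates.

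The test was edgeR's (version 4.0.16, R 4.3.3). filterByExpr with a minimum count of 10 kept 16738 of 46958 genes. All 13 libraries entered 1 quasi-likelihood fit with TMM factors, 1 coefficient per genotype and no block, and p-values were adjusted by Benjamini-Hochberg. A gene is called at an adjusted p under 0.05. The SE is the log2 fold change divided by the root of F, and for log2 CPM the prior count was 2. DESeq2 1.42.0 was an alternative, and the steps were tested on simulated data. Same-genotype library pairs differed by chi-square values per degree of freedom of 12.6 to 196, so none looked deposited a second time. Deviations from genotype means correlated across genes between libraries sharing a title code, at 0.49 for the code of both replicates 1, 0.16 for DH-LMP2A replicate 3 and WT replicate 2, and 0.46 for DH-LMP2A replicate 4 and the single mice. Libraries of different codes were not compared in this way, so these values do not show that the code pairs libraries. The code was used as a block because libraries of different genotypes share it, and the blocked value stands beside the results. WT has no library under the remaining code.

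Named are called genes averaging 1 CPM or more, with one direction under each of the 3 codes that hold both genotypes and no predicted gene: the 12 largest rises and 12 largest falls, those also called with the block and the Y-linked covariate, the 2 smallest p of each list with a call, and Igkc, Ighm, Igha, Jchain, Ddx3y and Xist. Some genes are not reported here. The 21 clock genes and the other genes named were chosen after their values were seen. The members and the lists were chosen with earlier results of these data known.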

Additional observations from a re-analysis of the deposited data

Results flagged for a closer look

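In 22 of 246 groups of 4 or 5 libraries, for single genes or list means in log2 CPM, 1 library lay far from the others of its genotype, the gap being a larger share of the range than Dixon's 95% limit. Chance alone gives about 12.3. The value of that library is followed by the range of the others. In DH-LMP2A, replicate 3 was high for Igha (-1.23 against -2.20 to -2.10) on a few reads. Replicate 2 was high for Nxpe4 (-0.73 against -1.25 to -1.18) and Mylk3 (0.90 against 0.13 to 0.16). Replicate 1 was high for Eps8l1 (0.48 against 0.07 to 0.10), C1qb (0.91 against -1.50 to -1.14) and the mean of the oxidative phosphorylation list (7.18 against 6.76 to 6.81).

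Of the WT libraries, replicate 1 was high for Cldn34c1 (2.37 against 1.80 to 1.94), Nxpe2 (3.60 against 2.70 to 2.95) and Herpud1 (7.22 against 6.54 to 6.72), and low for Ptpro (9.17 against 10.42 to 10.91) and Jchain (1.15 against 2.99 to 3.72). Replicate 2 was high for Ddx3y (3.62 against -3.57 to -3.01), Eif2s3y (2.63 against -3.57 to -2.60), Uty (1.49 against -3.57 to -3.57) and the Y-linked list (2.58 against -3.57 to -3.33), and for Slco1a1 (-0.79 against -3.57 to -3.57). It was also high for H2-Q6 (11.72 against 10.63 to 10.92), C1qb (5.0 against 0.17 to 0.95), C1s1 (7.87 against 7.10 to 7.31) and the interferon response list (6.16 against 3.93 to 4.23), and low for F8 (6.35 against 7.45 to 7.79) and Skil (5.37 against 6.57 to 6.80).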

How the results depend on the processing

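The 105 calls became 562 with the title code as block, 458 with DESeq2, 472 with the proximal tubule covariate, 54 among genes averaging 5 CPM or more and 69 without the 3 single-mouse WT libraries. They became 36 with the log2 Y-linked covariate and, in fits added after the data were seen, 7 with the linear Y-linked covariate and 17 with that covariate and the block. Fits with RLE factors, without a filter, of the 9 libraries alone (with and without the block) or with a log2 fold change of at least 1 gave 77 to 152. Leaving out 1 library gave 29 to 407: fewer without DH-LMP2A replicate 2 (29), 3 (35) or 4 (50) or WT replicate 3 (33), 4 (43) or 5 (41), and more without WT replicate 1 (407). The cause was not tested. Of the 39 named called genes, 38 remained called with the block, 39 with DESeq2, 23 in the fit of the 9 libraries, 17 without the single-mouse WT libraries, 16 with the log2 and 6 with the linear Y-linked covariate. The block was used because libraries of different genotypes share the codes. Signs turned, all in genes not called: with the log2 Y-linked covariate for Prdm1 (0.11), Lama4 (0.018), Skil (0.27), Clock (0.38), Xist (1.57), Uty (-0.014) and Ddx3y (-0.20), and with the linear one for Xist (1.96, with the block 2.05). With the title code as block Cry1 turned to -0.079, and in the 9 libraries with the block to -0.17. Leaving out each library in turn gave -0.17 to 0.42 for Cry1 (lowest without DH-LMP2A replicate 2) and -0.046 to 0.34 for Rora (lowest without DH-LMP2A replicate 4), and without the single-mouse WT libraries Bhlhe40 was -0.27. A count of 0 allows up to 0.0971 to 0.185 CPM, so changes in genes near this level could not be seen.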
